A study of Mus musculus with 6 samples.

Results

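The genes described here are 33 mouse genes for secreted and cell-surface matrix proteases and their inhibitors. They comprise 17 matrix metalloproteinases (MMPs), 4 tissue inhibitors of metalloproteinases (TIMPs) and 12 ADAMTS proteases. They belong to these families by name and are not all of their genes: 9 other tested genes of the families are counted apart below. The array carried 43 probes for them, and the probe with the highest mean signal over the 6 arrays stood for each gene. All 33 genes were on the array, and 29 of them were among the 25780 genes tested.

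MMPs are zinc-dependent enzymes that cut collagens, elastin, proteoglycans and the matrix glycoproteins, and most are released as inactive proenzymes. TIMPs bind the active site of MMPs and block it, and TIMP3 also inhibits several ADAM and ADAMTS enzymes. ADAMTS proteases carry thrombospondin repeats that hold them in the matrix, where some cut the proteoglycans aggrecan and versican and others trim the end of procollagens. In the islet the matrix around endocrine cells and capillaries contains laminins and collagen IV.

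Islets of male C57Bl/6N mice were dispersed and the cells cultured for 72 h in medium with heat-inactivated fetal calf serum. The control cells (3 arrays) received no exosomes. The exoNOD cells (3 arrays) were given exosomes (small membrane vesicles) at 50 µg/ml, made by T lymphocytes of the CD4+CD25- class. The lymphocyte donors were NOD mice, which become diabetic through autoimmunity. The 3 experiments used separate preparations of islets and of exosomes, and no group given vesicles from another source is analysed here.

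Each array held 43020 transcript spots, of which 78.1% to 81.8% were well above background and 0 were saturated. Scan times place the 3 control arrays on slide 1 together with exoNOD replicate 1, whereas replicates 2 and 3 of exoNOD were scanned with slide 2. All 10 beta cell markers were above background on all 6 arrays. A level is the log2 signal less that of the array's 75th percentile, a change is the exoNOD mean minus the control mean (n = 3 arrays each), and a gene passed at an adjusted p under 0.05 in limma. Their number limits the precision. Arrays of equal replicate number deviated together, so limma was run without and with the replicate number as a block, and both results are given. The labels do not state that equal numbers share an islet preparation. In this bulk RNA, more cells of a type and more RNA per cell cannot be told apart.

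The inhibitor gene Timp1, the collagenase gene Mmp13 and the stromelysin gene Mmp3 had 2.90, 2.93 and 2.87 times the control signal in exoNOD cells, and the ADAMTS genes Adamts1, Adamts9 and Adamts14 had 1.74 to 2.53 times. The Mmp3 probe was dim and above background on 1 of 3 control arrays, so its fold is uncertain. Of the 29 tested genes 1 passed without the block, Adamts14, against 0.105% of all genes tested. It rose (0.101% of all genes) and 0 fell (0.00388%). With the block 9 passed (8.76% of all genes), of which 9 rose (6.93%) and 0 fell (1.83%). The 9 were Timp1, Mmp13, Adamts14, Adamts1, Mmp3, Adamts4, Adamts2, Mmp12 and Adamts9. Of the 29 genes 21 had a higher mean in exoNOD cells (55.4% of all genes), and their median log2 change was 0.24, against 0.04 for all genes tested. On 7 of the 29 all exoNOD arrays lay above all control arrays (14.6% of all genes), and on 0 they lay below (7.78%). Mmp3 and Mmp9, of those 7, passed the filter on dim probes through the exoNOD group alone, so the count is a description. The 3 pairs had the same sign for 17 genes (51.2% of all genes), higher for 16 (29%) and lower for 1 (22.1%).

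**Figure D1:**
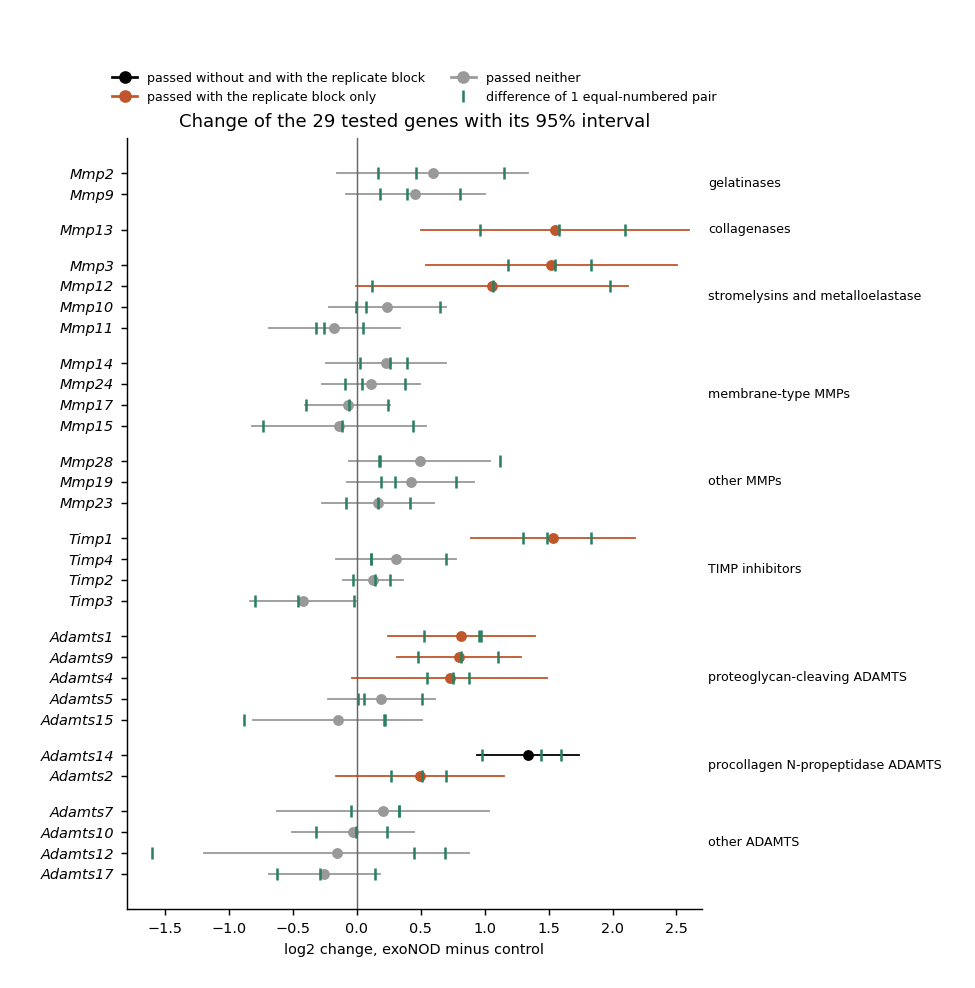
Log2 change (horizontal axis, exoNOD minus control) of the 29 tested genes by subfamily, with the 95% interval of limma without the block as a line and the differences of the 3 equal-numbered pairs as green ticks. Black marks the gene that passed in both fits, orange those that passed with the block only and grey the rest. The intervals of Adamts14, Timp1, Mmp13, Mmp3, Adamts1 and Adamts9 lie above 0, and Timp3 is the 1 gene whose interval lies below 0.

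Timp1 encodes a secreted inhibitor of most soluble MMPs that is known to be induced by cytokines. Its level was 0.37, 0.50 and 1.20 on control arrays and 1.67, 2.33 and 2.68 on exoNOD arrays (replicates 1, 2 and 3). The groups did not overlap, and control replicate 3 was the highest control. The control mean was 0.69 ± 0.45 (SD, n = 3) and the exoNOD mean 2.23 ± 0.52, a log2 change of 1.54 ± 0.28 (SE). The adjusted p was 0.0828, and 0.000132 with the replicate block. The pairs differed by 1.30, 1.83 and 1.48.

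The other inhibitor genes did not pass in either fit, and a difference between their changes and that of Timp1 was not tested. Timp3, whose product stays bound to the matrix, had levels of 0.93, 0.46 and 0.63 on control arrays and 0.14, 0.00 and 0.62 on exoNOD arrays. Its groups overlapped only through exoNOD replicate 3, and its log2 change was −0.42 ± 0.18 (adjusted p = 0.294, 0.0700 with the block), with 1.34 times more signal in control cells. It was lower in all 3 pairs, by 0.79, 0.46 and 0.02 on the log2 scale, and was the 1 tested gene of the 29 with that pattern (22.1% of all genes). With the block it fell without pair 3, and after scaling by the array median (−0.56, adjusted p = 0.000984). In both of these fits limma's prior had unlimited degrees of freedom, so the gene's own spread counted little. After scaling by the array median the median of all genes was −0.11. With the block Timp3 did not pass without pair 1 (adjusted p = 0.193) or without pair 2 (0.308).

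Timp2, which also takes part in the activation of pro-MMP2, had levels of 0.05, −0.11 and 0.01 in control and 0.03, 0.15 and 0.14 in exoNOD cells. Its log2 change was 0.12 ± 0.10 with a 95% interval from −0.11 to 0.36 (adjusted p = 0.556), and it was −0.02 after scaling by the array median. Timp4 had levels of −4.53, −4.55 and −4.16 in control and −4.42, −3.85 and −4.05 in exoNOD cells, a change of 0.30 ± 0.21 (adjusted p = 0.471). So 1 of 4 inhibitor genes passed with the block (8.76% of all genes) and 0 without it (0.105%).

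**Figure D2:**
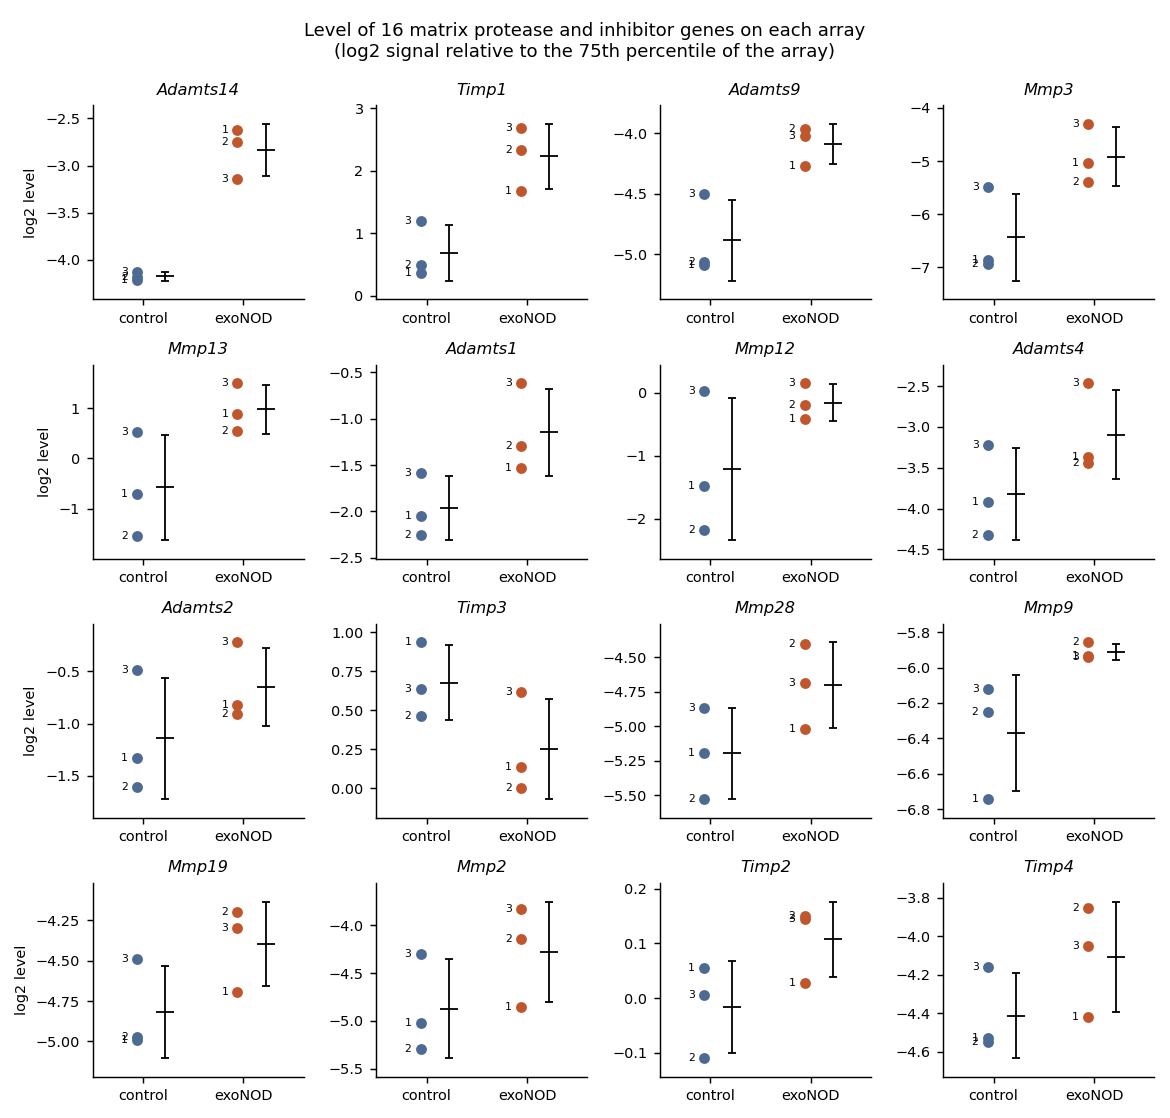
Level (vertical axis, log2 scale, with the array's 75th percentile at 0 and its own range in each panel) of 16 genes on each control and exoNOD array. Points carry their replicate number, and bars give the mean and SD of each group of 3. In the panels of Timp1, Mmp3, Mmp13, Adamts1, Adamts9, Adamts14 and Mmp9 the groups do not overlap.

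The collagenase and stromelysin genes Mmp13, Mmp12, Mmp3, Mmp10 and Mmp8 lie in 1 gene cluster on mouse chromosome 9. The promoter windows of RefSeq (build GRCm38.p6) were searched for the AP-1 motif TGANTCA, a site for FOS and JUN family factors known from MMP promoters. A window runs from 250 bases before a start to 50 bases after it, both strands were searched, and each match of this motif reads on both strands. Of the 33 genes 23 had a window. The motif occurred in 4 of these 23 genes, Mmp13, Mmp12, Mmp3 and Mmp10, and in 7.81% of all 32851 windows. The 250 bases before the start of these 4 genes of the cluster are shown because they hold the motif. The AP-1 match is in capitals.
Mmp13 (chr9:7272264-7272513, plus strand): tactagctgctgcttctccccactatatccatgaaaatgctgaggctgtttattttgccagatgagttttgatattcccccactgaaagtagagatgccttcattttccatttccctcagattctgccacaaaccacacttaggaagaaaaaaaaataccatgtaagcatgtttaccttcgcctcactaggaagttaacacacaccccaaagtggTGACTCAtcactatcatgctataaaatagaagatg
Mmp12 (chr9:7347124-7347373, plus strand): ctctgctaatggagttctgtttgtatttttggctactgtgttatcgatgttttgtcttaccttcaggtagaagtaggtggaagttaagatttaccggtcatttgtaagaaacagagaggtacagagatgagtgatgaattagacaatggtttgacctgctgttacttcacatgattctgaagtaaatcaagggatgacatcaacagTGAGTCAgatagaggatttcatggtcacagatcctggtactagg
Mmp3 (chr9:7445572-7445821, plus strand): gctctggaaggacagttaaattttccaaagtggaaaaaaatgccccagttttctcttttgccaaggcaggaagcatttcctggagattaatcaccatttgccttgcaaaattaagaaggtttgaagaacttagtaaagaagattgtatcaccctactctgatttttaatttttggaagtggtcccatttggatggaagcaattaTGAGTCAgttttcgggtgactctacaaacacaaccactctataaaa
Mmp10 (chr9:7502092-7502341, plus strand): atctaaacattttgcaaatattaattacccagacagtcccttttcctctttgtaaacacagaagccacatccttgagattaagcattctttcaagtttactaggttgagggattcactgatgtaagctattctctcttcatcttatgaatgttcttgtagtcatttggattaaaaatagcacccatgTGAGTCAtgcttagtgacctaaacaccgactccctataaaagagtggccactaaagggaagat

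Counted from the start, the matches began at −35 in Mmp13, −44 in Mmp12, −46 in Mmp3 and −63 in Mmp10. Mmp12 has a second annotated start whose window held 0 matches. The motif TATAAA occurred in the windows of 6 genes, those 4 with Mmp8 and Adamts1 (13.6% of all windows). The NF-kB motif occurred in 0 of the 23 genes (5.56% of all windows). A match is a description of the letters in these windows, and its use in these cells was not measured.

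**Figure D3:**
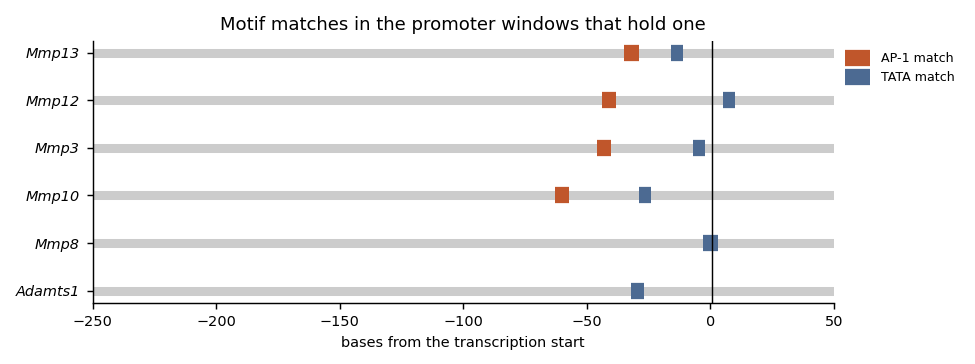
Motif matches in the promoter windows that hold any, by distance in bases from the transcription start (vertical line). AP-1 matches lie between −63 and −29 in Mmp13, Mmp12, Mmp3 and Mmp10, and Mmp8 and Adamts1 hold a TATA match only.

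Mmp13, the main collagenase of rodents, had levels of −0.70, −1.55 and 0.52 on control arrays and 0.88, 0.55 and 1.49 on exoNOD arrays. The groups did not overlap, but control replicate 3 lay just below exoNOD replicate 2. The control level varied more (−0.58 ± 1.04, SD, n = 3) than that of exoNOD cells (0.97 ± 0.48). The log2 change was 1.55 ± 0.46 (adjusted p = 0.212, 0.00127 with the block), and the pairs differed by 1.58, 2.10 and 0.97. Of the 9 genes that rose with the block, Timp1 and Mmp13 passed without any 1 of the 3 pairs. Without pair 2 the other 7 did not pass, with adjusted p from 0.0509 (Adamts14) to 0.242 (Mmp12). Adamts4 also did not pass without pair 3 (0.0622). Without pair 1 or pair 3 limma's prior had unlimited degrees of freedom, so a pass there takes the gene's own spread little into account.

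Mmp3 encodes stromelysin 1, which degrades proteoglycans and activates other pro-MMPs. Its levels were −6.87, −6.95 and −5.49 on control arrays and −5.04, −5.40 and −4.31 on exoNOD arrays. The probe was dim, above background on 1 of 3 control arrays and on 3 of 3 exoNOD arrays, and it entered the test through the exoNOD group. The log2 change was 1.52 ± 0.43 (adjusted p = 0.197, 0.00522 with the block). A probe that passes the filter through its higher group tends to differ, so its place among the 9 is a description and no support. All pairs were higher, by 1.83, 1.55 and 1.19, and the groups did not overlap.

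Mmp12 encodes the macrophage metalloelastase. Its levels were −1.49, −2.17 and 0.03 on control arrays and −0.42, −0.19 and 0.15 on exoNOD arrays. Control replicate 3 lay above exoNOD replicates 1 and 2, so the groups overlapped. The log2 change was 1.06 ± 0.47 (adjusted p = 0.302, 0.0348 with the block), and the pairs differed by 1.06, 1.98 and 0.12. Without pair 2 the change was 0.59 and it did not pass (0.242).

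Mmp10, which encodes stromelysin 2, had levels of −3.86, −4.02 and −3.53 on control arrays and −3.87, −3.38 and −3.45 on exoNOD arrays. Its change was 0.24 ± 0.20, with a 95% interval from −0.22 to 0.69 (adjusted p = 0.559, 0.404 with the block). The interval of Mmp3 ran from 0.54 to 2.50 and that of Mmp13 from 0.50 to 2.60. A difference between the changes of these genes was not tested. Mmp8, the neutrophil collagenase, was above background on 0 control arrays and 1 exoNOD array, and was not tested. Mmp11, which encodes stromelysin 3 and lies outside the cluster, changed by −0.18 ± 0.23 (adjusted p = 0.712) at its brighter probe and by 0.10 ± 0.19 at the other.

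The gelatinase genes Mmp2 and Mmp9, whose products cut denatured collagen and collagen IV, did not pass in either fit. Mmp2 had levels of −5.02, −5.30 and −4.30 in control and −4.86, −4.14 and −3.83 in exoNOD cells, a change of 0.59 ± 0.33 (adjusted p = 0.387, 0.121 with the block). ExoNOD replicate 1 lay among the controls, 0.02 above their mean. Mmp9 had levels of −6.74, −6.25 and −6.12 in control and −5.94, −5.86 and −5.94 in exoNOD cells. Those groups did not overlap, but the probe was near background (above it on 2 of 3 control arrays), and the change was 0.46 ± 0.24 (adjusted p = 0.360) and −0.01 in the authors' values.

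The membrane-type MMPs stay on the cell surface, and MMP14 is the known activator of pro-MMP2. Mmp14 had levels of −3.58, −3.44 and −2.93 in control and −3.32, −3.05 and −2.90 in exoNOD cells, a change of 0.23 ± 0.21 (adjusted p = 0.593). Of this group 4 genes were tested, with changes from −0.14 (Mmp15) to 0.23 (Mmp14). Of these 0 passed without the block (0.105% of all genes) or with it (8.76%). Mmp17 changed by −0.07 ± 0.15, with an interval from −0.41 to 0.26. Mmp16 and Mmp25 were above background on 0 of 6 arrays.

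The remaining MMPs did not pass in either fit. Mmp28, which encodes epilysin, changed by 0.49 ± 0.24 (adjusted p = 0.340), from levels of −5.19, −5.52 and −4.87 to −5.02, −4.40 and −4.68. Mmp19 changed by 0.42 ± 0.22 (0.364), from −4.99, −4.97 and −4.49 to −4.69, −4.20 and −4.30. Both were higher in all 3 pairs, most in pair 2 (1.12 and 0.77), and in both the groups overlapped. Mmp23 changed by 0.17 ± 0.19 (0.681).

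Of the ADAMTS genes among the 33, 5 for proteoglycan-cleaving enzymes were tested. With the block 3 of these 5 rose (6.93% of all genes), and without it 0 did (0.101%). Adamts1, an inflammation-induced versicanase, had levels of −2.05, −2.25 and −1.59 on control arrays and −1.53, −1.30 and −0.62 on exoNOD arrays. The groups did not overlap, although control replicate 3 and exoNOD replicate 1 were close. The log2 change was 0.82 ± 0.25 (adjusted p = 0.221, 0.00381 with the block), and the pairs differed by 0.53, 0.96 and 0.97.

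Adamts9, which encodes a versicanase of the same branch of the family, had levels of −5.09, −5.07 and −4.50 in control and −4.27, −3.97 and −4.02 in exoNOD cells. The groups did not overlap, and the change was 0.80 ± 0.21 (adjusted p = 0.174, 0.0351 with the block). Adamts4, the cytokine-induced aggrecanase, had levels of −3.92, −4.33 and −3.22 in control and −3.37, −3.45 and −2.47 in exoNOD cells. Control replicate 3 lay above exoNOD replicates 1 and 2, and the change was 0.73 ± 0.34 (0.315, 0.0186 with the block). Neither Adamts9 nor Adamts4 passed with the block after quantile normalization (0.0762 and 0.0556).

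The second aggrecanase gene, Adamts5, had levels of −4.95, −5.05 and −4.86 in control and −4.89, −4.54 and −4.85 in exoNOD cells. It changed by 0.19 ± 0.18 with an interval from −0.23 to 0.61 (adjusted p = 0.612, 0.567 with the block). Adamts15 changed by −0.15 ± 0.29 (0.815) and was above background on 2 of 3 exoNOD arrays. Adamts20 was above background on 0 of 6 arrays.

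Adamts14 and Adamts2 encode enzymes that remove the amino-terminal propeptide of procollagens. Adamts14 had levels of −4.21, −4.19 and −4.13 on control arrays and −2.62, −2.75 and −3.15 on exoNOD arrays. The controls lay close together (−4.18 ± 0.05, SD, n = 3), and every exoNOD array was far above them (−2.84 ± 0.28). The log2 change was 1.34 ± 0.17 (adjusted p = 0.0455, 0.00195 with the block), and exoNOD replicate 1, on the slide of the controls, lay 1.56 above their mean.

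The call rests on 1 of the 2 probes of Adamts14, which carry the same RefSeq accession. With every probe as a row of its own, the brighter probe changed by 1.34 ± 0.17 (adjusted p = 0.0476) and the dimmer one, above background on all 6 arrays, by 0.24 ± 0.20 (0.569, 0.515 with the block). Their mean changed by 0.79 (0.139). Adamts14 also did not pass without control replicate 1 or 2, without exoNOD replicate 2 or 3, or on the authors' values.

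**Figure D4:**
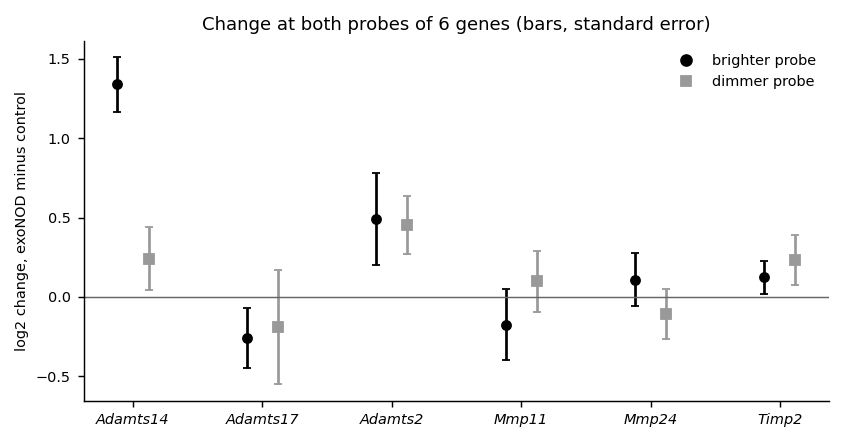
Log2 change (vertical axis, exoNOD minus control) with its standard error at both probes of the 6 genes with more than 1 probe above background. The brighter probe of Adamts14 lies at 1.34 and the dimmer at 0.24, whereas the probes of Adamts2 lie at 0.49 and 0.46.

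Adamts2 had levels of −1.33, −1.60 and −0.49 in control and −0.82, −0.91 and −0.22 in exoNOD cells. Control replicate 3 again lay above exoNOD replicates 1 and 2. The change was 0.49 ± 0.29 (adjusted p = 0.413, 0.0242 with the block). Its dimmer probe changed by 0.46 ± 0.18 and did not pass in either fit (0.288, 0.127 with the block). The pairs of the brighter probe differed by 0.51, 0.70 and 0.27.

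Of the other ADAMTS genes 4 were tested, and 0 passed without the block (0.105% of all genes) or with it (8.76%). Adamts7 and Adamts12, whose products cleave a cartilage matrix protein, changed by 0.20 ± 0.37 and −0.16 ± 0.46. Adamts12 had its highest level on control replicate 1 (−3.48), while the other 5 arrays lay between −5.37 and −4.22. Adamts10 and Adamts17, both tied to fibrillin microfibrils, changed by −0.03 ± 0.21 and −0.26 ± 0.19. Over the 13 tested genes outside the 16 of the plot of levels, log2 changes ran from −0.26 to 0.24. Of these 13, 6 were higher (55.4% of all genes) and 7 lower. On 0 of them were the groups apart (14.6% of all genes above and 7.78% below). The 13 were left after the genes with the lowest p were taken out. Their small changes therefore follow in part from that choice.

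ExoNOD replicate 1 lies on the slide of the controls. It lay above all 3 controls for 7 of the 29 genes (27.4% of all genes) and below them for 3 (20.8%). The 7 were those whose groups did not overlap, Timp1, Mmp3, Mmp13, Mmp9, Adamts1, Adamts9 and Adamts14. Groups apart with exoNOD higher require replicate 1 to lie above all controls, so this match is no separate result. Mmp3 and Mmp9 passed the filter through the exoNOD group alone. The distance of exoNOD replicate 1 from the control mean was 0.98 for Timp1, 1.46 for Mmp13 and 1.39 for Mmp3. It was 0.43 for Mmp9, 0.44 for Adamts1, 0.61 for Adamts9 and 1.56 for Adamts14. In limma on slide 1 alone 0 of the 29 genes passed, and 0 of all 25780 (1143 at an unadjusted p under 0.05). The replicate block could not be used there. In pairs 2 and 3 the control array lies on slide 1 and the exoNOD array on slide 2. In those pairs slide and exosomes cannot be told apart, and the replicate block does not adjust for slide.

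Markers of the cell types known to make these enzymes were set beside the changes, and their part in them was not tested. The 13 fibroblast and stellate cell markers, all above background, had a summed level (signal over the 75th percentile) of 54.7 to 80.1 in control and 64.8 to 91.1 in exoNOD cells. With the block 2 of them rose (6.93% of all genes), Pdgfra (log2 change 1.23, adjusted p = 0.0130) and Thy1 (0.45, 0.0315). Both were named after their values were seen. Of the 13, 8 were higher and 5 lower, namely Dcn (−0.29), Lum (−0.26), Rgs5 (−0.25), Col3a1 (−0.17) and Acta2 (−0.06). The summed level was highest on replicate 3 of each group (80.1 and 91.1), the replicate with the highest control level of Timp1, Mmp13, Mmp12 and Adamts2. The 12 macrophage and dendritic cell markers on the array summed to 28.8 to 31.0 in control and 22.7 to 25.0 in exoNOD cells. The sum was lower in every exoNOD array, but most of it is the signal of Itgam alone. Of the 11 tested markers 3 were higher, and the median log2 change of the 11 was −0.04. Mmp12 rose with the block. Of these markers Itgam, the brightest, changed by −0.50 (adjusted p = 0.0828, 0.00889 with the block) and Adgre1 by −0.87 (0.258, 0.0157 with the block), while Mrc1 rose by 2.20 (0.0601, 0.00172 with the block). Adgre1 and Mrc1 were named after their values were seen.

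The neutrophil markers S100a8 and Ngp were above background on 0 arrays, and 4 of the 9 on the array were above it on all 6. The 9 summed to 40.5 to 45.9 in control and 45.7 to 49.9 in exoNOD cells. Most of this sum is the signal of the 2 brightest, Csf3r (log2 change 0.12, adjusted p = 0.540) and Elane (0.35, 0.385). Neither passed with the block (0.431 and 0.233). Endothelial markers summed to 7.66 to 8.70 and 9.12 to 9.81, with Tie1 above background on 0 arrays. With the block Plvap, the brightest, rose (0.43, adjusted p = 0.0211), whereas Cdh5 (−0.80, 0.0347) and Emcn (−0.98, 0.0396) fell, and these 2 were named after their values were seen. T lymphocyte markers summed to 14.2 to 19.1 and 14.2 to 18.6, with Cd3g above background on 0 arrays. Of the 7 tested 6 were higher (median log2 change 0.35), whereas Cd3e, the brightest, changed by −0.18. With the block Lck (0.63, adjusted p = 0.00343) and Il7r (0.68, 0.0472) rose, both named after their values were seen. Of 7 mast cell markers on the array 4 (Cpa3, Cma1, Fcer1a and Ms4a2) were above background on 0 arrays, and the list summed to 0.435 to 0.50 in control and 0.836 to 0.997 in exoNOD cells. Of this list Tpsb2, a tryptase gene and its brightest, rose by 1.30 (adjusted p = 0.0288 without the block), and Kit changed by −0.44 (0.413). The 10 beta cell markers summed to 1107 to 1175 in control and 1074 to 1095 in exoNOD cells. With the block 6 of them fell (1.83% of all genes).

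Other genes of matrix breakdown were counted from fixed lists, and in limma without the block 0 of them passed (0.105% of all genes). Of 27 tested activators and other proteases 4 rose with the block (6.93% of all genes) and 0 fell (1.83%). These were, with Adam8 named after its value was seen, Adam19, a membrane metalloprotease (log2 change 0.95, adjusted p = 0.00153 with the block), Adam8 (0.90, 0.00485), the tissue plasminogen activator gene Plat (0.67, 0.0132) and the urokinase receptor gene Plaur (0.62, 0.0351). The metalloprotease gene Mep1a changed by 0.60 (0.103).

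Of 17 tested inhibitors and regulators 3 rose with the block (6.93% of all genes) and 0 fell (1.83%). Pcolce2, an enhancer of procollagen processing, changed by 1.02 (adjusted p = 0.00540 with the block). Lcn2, whose product binds MMP9, changed by 0.78 (0.0243). Spock1, a matrix proteoglycan, changed by 0.41 (0.129).

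Of 24 tested matrix genes, the substrates of these enzymes, 4 rose (6.93% of all genes) and 2 fell (1.83%) with the block. Lama1, a laminin chain of basement membranes, fell by 1.18 on the log2 scale (adjusted p = 0.00318 with the block), and Lamb1, a partner chain, rose by 0.71 (0.00291). The fibrillin gene Fbn1 rose by 0.49 (0.0221), and Col5a1 changed by 0.38 (0.0504). The others past the threshold, named after their values were seen, were Nid1 (0.44), Col6a1 (0.41) and Acan (−0.32). Of 9 tested genes of the MMP and ADAMTS families outside the 33, 0 passed without the block (0.105% of all genes) or with it (8.76%). The 4 with the lowest p, Mmp7, Adamtsl3, Adamtsl1 and Adamts16, changed by 0.33 to 0.36.

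Other scalings kept the sign of the 9 genes that rose with the block, which were chosen for that rise on the same arrays. The kept sign is therefore a description and no support. With the block after quantile normalization 5 of the 29 rose (3.19% of all genes) and 0 fell (1.46%), as on the authors' values (3.29% and 1.48%). Those 5 were Timp1, Mmp13, Adamts14, Mmp3 and Adamts1 in both cases. Without the block 0 passed after quantile normalization (0.0776% of all genes rose and 0.0465% fell) or on the authors' values (0.0698% and 0.0504%).

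**Figure D5:**
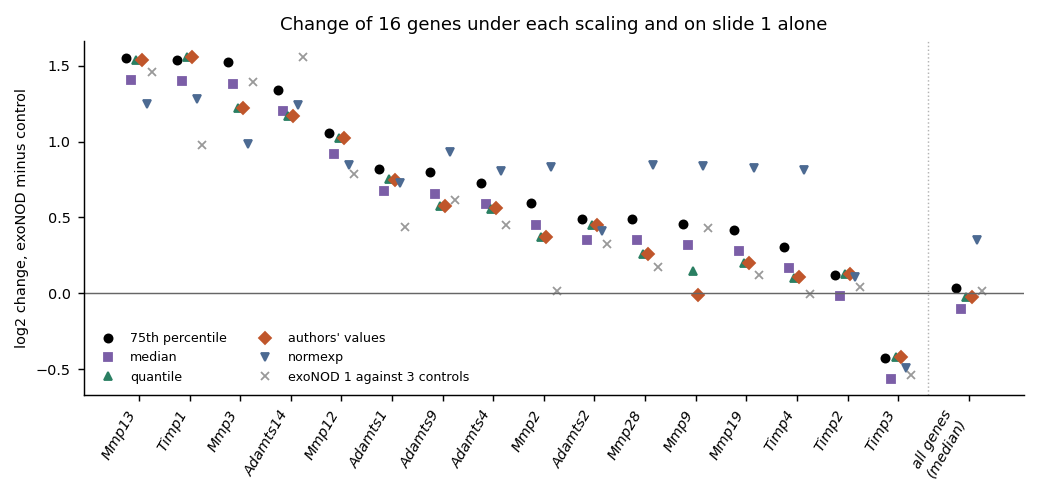
Log2 change (vertical axis, exoNOD minus control) of 16 genes under each scaling and for the exoNOD array that shares a slide with the controls, and at the right the median of all genes tested. The changes of Timp1 and Mmp13 lie at or above 0.98 throughout. Under normexp the dim genes Mmp2, Mmp28, Mmp9, Mmp19 and Timp4 move up together, and the median of all genes is 0.35.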

How the data were processed

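RNA of 3 control and 3 exoNOD samples was hybridised to 1-colour Agilent arrays. The intensity values are processed signals from Agilent Feature Extraction 11.0.1.1, per the file headers, and the spot flags (well above background, saturated, outlier) are deposited with them. The authors' deposited value table holds log2 values, which correlated at 0.9999 or more with quantile-normalized signals of the same arrays. The accession given with each probe was matched to the gene symbols of RefSeq. Of the 25780 genes tested 17252 had a symbol, and each probe without a symbol counted as a gene of its own.

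The log2 signal minus the 75th percentile of each array was fitted with limma 3.58.1 in R 4.3.3 (eBayes with trend, Benjamini-Hochberg adjustment over 25780 genes, threshold 0.05). A gene was tested if its probe was well above background throughout either group. Outlier spots were left out. The scripts were tested on simulated data. Within each group the samples are separate experiments. The labels do not state whether control and exoNOD samples of equal replicate number are independent of each other.

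The members and lists were chosen with earlier results of these data known. Genes given array by array were those past the threshold in either fit, then the lowest p up to 14, and the 4 Timp genes, 16 in all; Mmp10, Mmp14 and Adamts5 were added after their values were seen. Of each other list, the 4 lowest p. The values of 1 such gene are not reported here.

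Deviations from the group means correlated at 0.366, 0.281 and 0.480 for equal replicate numbers, and at −0.341 to 0.01 for unequal ones, so the numbers were taken as pairs, from the data. Slides were inferred from scan times. The normexp alternative (offset 50) was run on median signals; mean signals were not used here. Other alternatives were the scaling, filter, probe choice, slide, variance trend and each replicate left out. Promoter windows are from RefSeq, GRCm38.p6.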

Additional observations from a re-analysis of the deposited data

How the results depend on the processing

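Without the block 27 genes passed in limma, 1 of them among the 29 tested matrix genes and 0 in the pathway lists. With the replicate block these counts were 2259, 9 and 13. They were 1231, 5 and 7 on the authors' values with the block, 1198, 5 and 7 after quantile normalization with the block, and 4178, 11 and 13 after median scaling with the block, an alternative added after seeing the data. Without the block, normexp gave 156 genes and 2 members, and median scaling 13 and 0. Quantile normalization, the authors' values and the mean of all probes also gave 0 members. Counts were 0 for genes and members with no filter (4635 genes at an unadjusted p under 0.05 in limma), slide as a block (929), slide 1 only (1143) and no variance trend (4356). Leaving out 1 array or pair gave 0 to 4167 genes, 0 to 10 members and 0 to 21 pathway genes. Under normexp, median scaling with the block, and the block without pair 1 or pair 3, limma's prior had unlimited degrees of freedom, so those p-values take the gene's own spread little into account. The cause of the other differences between counts was not tested.

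Mmp9 changed by −0.01 on the authors' values with and without the block (−0.0098), Timp2 by −0.02 after median scaling with and without it (−0.0168), and Timp4 by −0.01 with slide as a block and on slide 1 (−0.0067). The 9 genes that rose with the block had a positive change under every alternative in which they were tested. They were chosen for a rise on these same arrays, so the kept sign is a description and no support. Under normexp 28 of the 29 genes had a positive change. Mmp3 was not tested in the fit limited to probes above background on all arrays. The share of all genes higher in exoNOD cells was 55.4%, against 45.9% after quantile normalization, 45.6% on the authors' values, 38.0% after median scaling and 68.0% under normexp. The median of all genes moved from 0.04 to −0.11 under median scaling and to 0.35 under normexp. Dim probes such as Mmp3 and Mmp9 are limited by their signal over background.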
